A study of Mus musculus with 6 samples.

Results

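The genes described here are 33 regulators of chromatin and transcription that have been linked to autism in human genetics, listed by name; the list was drawn up with earlier results of these data known. Of these, 32 had a value in every library and all 32 passed the filter on low counts, among 15895 genes tested of 21553 with values. The remaining one, Setd1b, which encodes a histone methyltransferase, was not analysed here. RNA was measured in hippocampal neurons of C57bl/6 mice, taken from embryos at stage E16.5 and grown for 10 days. The cultures were exposed to 55 mM KCl for 3 h, exposed to it for 0.5 h, or left untreated, with 2 libraries in each of the 3 groups. Raised potassium depolarises neurons and opens calcium channels, and is widely used to imitate activity in a dish. Primary cultures of this kind also hold glia, and no label says whether the libraries of a group came from separate cultures, so the p-values measure only the spread between these libraries. The series concerns an activity-dependent splicing network and autism; here only the RNA level of whole genes was compared.

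Chromatin regulators decide how easily a gene can be read. Remodelling enzymes of the CHD family and the BAF complex use ATP to move nucleosomes, histone methyltransferases write marks that reader proteins recognise, corepressors and Mediator carry the signal to RNA polymerase, and ubiquitin ligases mark regulators and histones. DNA-binding factors such as TBR1 and the FOXP proteins choose the target genes. Many of these genes cause developmental disorders in people when only one copy is lost, so their dosage in neurons has drawn attention.

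The libraries held 141865913 and 133219004 counts in the untreated group, 136170697 and 115900044 at 0.5 h and 140048704 and 98882007 at 3 h. Levels are given in cRPKM, a value the authors deposited beside the read count. The sources used here do not define it, and it was taken as the count normalised for gene length and library total. On that reading genes of different length can be set side by side. The length it implies was within 5% of the longest annotated transcript for 19 of the 32 regulators. It was 50.3% of that transcript for Bcl11a and 112% for Kmt2c, so comparisons between genes depend on the length used. The treatment was visible in Fos, an immediate early transcription factor gene, which stood at 7.98 and 8.14 cRPKM in untreated cultures, 237 and 223 at 0.5 h and 344 and 271 at 3 h. Npas4, a factor gene specific to neuronal activity, stood at 4.84 and 4.55 cRPKM in untreated cultures, 111 and 101 at 0.5 h and 231 and 120 at 3 h. Both genes were higher in every KCl library than in either untreated one. Neuron markers summed to 2083 and 1905 cRPKM in untreated cultures, 2028 and 1800 at 0.5 h and 1756 and 1266 at 3 h. None of the 8 averaged under 1 cRPKM over the libraries. Astrocyte markers were present as well: the 7 genes summed to 836 and 1253 cRPKM in untreated cultures, 844 and 1389 at 0.5 h and 901 and 1892 at 3 h. All 6 microglia markers averaged under 1 cRPKM over the libraries. In bulk RNA, fewer cells of a type and less RNA per cell cannot be told apart.

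The promoters of 4 genes that differed at 3 h are shown first, because they are the DNA next to genes whose RNA level was called different. Each is a RefSeq window of 300 bases around the start of the gene, most of it upstream, on build GRCm38.p6, written 5′ to 3′ on the gene's strand. Capitals mark TGACG, the core of the cyclic AMP response element through which activity-regulated factors such as CREB bind. The windows are chr8:123042235-123042534 on the minus strand for Ankrd11, chr5:25498734-25499033 on the minus strand for Kmt2c, chr2:165858124-165858423 on the minus strand for Zmynd8, whose table lists 5 starts, and chr11:60104763-60105062 on the plus strand for Rai1. For Zmynd8 the start whose window held most CpG dinucleotides was taken.
Ankrd11 promoter: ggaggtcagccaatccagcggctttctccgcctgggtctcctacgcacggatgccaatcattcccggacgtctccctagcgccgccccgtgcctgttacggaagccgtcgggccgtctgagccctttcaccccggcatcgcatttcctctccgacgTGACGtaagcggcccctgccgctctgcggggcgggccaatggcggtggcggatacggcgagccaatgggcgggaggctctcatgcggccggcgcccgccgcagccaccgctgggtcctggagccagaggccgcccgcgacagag
Kmt2c promoter: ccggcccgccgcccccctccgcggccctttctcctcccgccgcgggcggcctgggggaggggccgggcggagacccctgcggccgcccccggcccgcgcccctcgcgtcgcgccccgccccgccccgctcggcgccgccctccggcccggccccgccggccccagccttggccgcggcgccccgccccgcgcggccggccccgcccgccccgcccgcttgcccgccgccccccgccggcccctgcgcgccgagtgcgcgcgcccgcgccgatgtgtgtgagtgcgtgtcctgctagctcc
Zmynd8 promoter: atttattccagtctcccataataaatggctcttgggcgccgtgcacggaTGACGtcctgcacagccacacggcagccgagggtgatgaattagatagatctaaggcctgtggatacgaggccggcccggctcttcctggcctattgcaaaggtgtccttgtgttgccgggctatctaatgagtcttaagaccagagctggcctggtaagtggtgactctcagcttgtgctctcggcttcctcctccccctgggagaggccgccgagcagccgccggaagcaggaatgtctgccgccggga
Rai1 promoter: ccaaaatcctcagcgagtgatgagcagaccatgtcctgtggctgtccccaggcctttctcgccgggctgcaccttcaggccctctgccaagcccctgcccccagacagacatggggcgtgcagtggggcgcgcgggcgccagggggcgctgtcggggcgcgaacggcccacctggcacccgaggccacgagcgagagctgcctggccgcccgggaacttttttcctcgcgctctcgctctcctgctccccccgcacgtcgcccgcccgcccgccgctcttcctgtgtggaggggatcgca

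TGACG was found in the windows of Ankrd11 and Zmynd8 and not in those of Kmt2c and Rai1, so it was present in 1 gene that was higher and 1 that was lower. For Zmynd8 the match is in 1 of its 5 windows, the one printed. The windows held 36 CpG dinucleotides for Ankrd11, 56 for Kmt2c and 29 for Rai1, above the median of 19 over windows of tested genes, and 17 for Zmynd8, below it. Promoters were listed for 22 of the 33 genes, in 30 windows, with a median GC content of 66.2%, against 60% over 15410 windows of the tested genes. Counted on both strands, TGACG lay in 9 of the 30 windows (30%), against 28.3% of the windows of tested genes. The full palindrome TGACGTCA, which contains TGACG, lay in none, against 2.75%, and the AP-1 motif TGANTCA lay in none, against 5.33%. The CArG box, which serum response factor binds, was also in none, against 1.39%. A match is a description of these letters in this window and no more.

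The 32 genes were well expressed in untreated cultures, with a median of 16.7 cRPKM against 7.81 over the tested genes, and 28 of them stood above that median. Tcf4, a basic helix-loop-helix factor, was the highest, with 103 and 106 cRPKM in the 2 untreated libraries, and lay at the 96.3rd percentile of tested genes. Chd3, a remodelling ATPase of the NuRD complex, followed with 78.1 and 72.3 cRPKM, and Smarcc2, a core subunit of the BAF complex, with 74.6 and 70.8. Their untreated ranges touch, so these last 2 cannot be ordered. Adnp, a homeobox zinc-finger protein, had 41.0 and 36.4 cRPKM. Foxp2, a forkhead factor known for its part in speech, was the lowest with 0.35 and 0.16 cRPKM, from 334 and 140 counts. Apart from Foxp2, the lowest were Asxl3 with 5.02 and 3.58 cRPKM, Chd7 with 6.10 and 4.77 and Foxp1 with 7.45 and 5.94, and neighbours among these 3 overlapped. The genes were long: the median of the longest transcript was 7379 bases against 3362 over tested genes, and all 32 lay above that median.

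**Figure D1:**
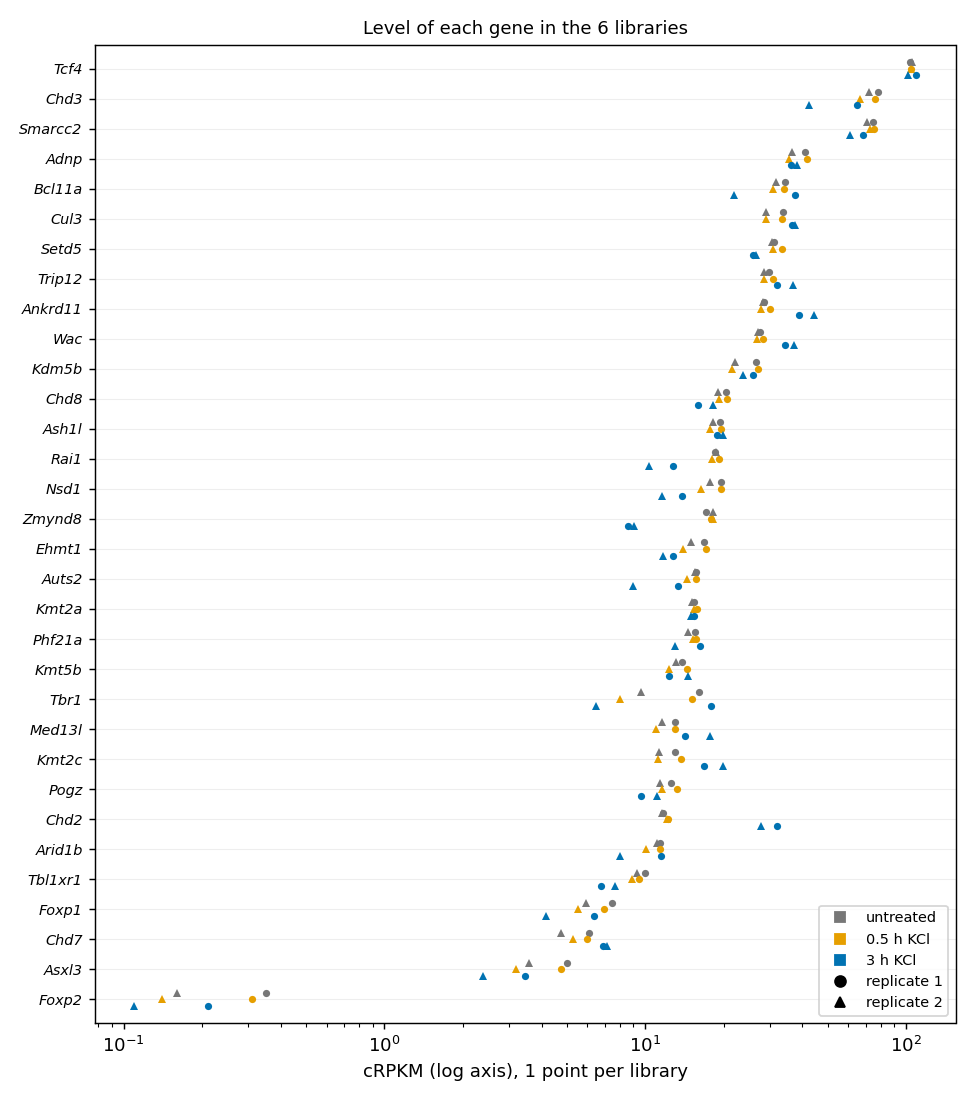
Level of each of the 32 genes in each library, in cRPKM on a log axis, with untreated, 0.5 h KCl and 3 h KCl libraries as separate points. Tcf4 sits near 104 cRPKM in all groups and Foxp2 under 1, while Chd2 and Zmynd8 show 3 h points that stand apart.

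The first question was whether the genes respond as early as 0.5 h. None passed the test: 0 of 32 were called at 0.5 h against untreated (edgeR quasi-likelihood test, Benjamini-Hochberg adjusted p under 0.05), where 0.0377% of tested genes were, all of them higher. The test could call few genes at this time. In a list of 15 immediate early genes it called 4. It missed Npas4, which was higher by 4.48 on the log2 scale (edgeR, adjusted p = 0.054). The 0 therefore does not show that the genes were unchanged. At an unadjusted p under 0.05 there were also 0 of the 32, against 0.805% of tested genes and 14 of the 15 immediate early genes. The other fits called 0 of the 32 as well, against 0.0818% of tested genes with the replicate number as a block, 0.233% with DESeq2, 0.315% with DESeq2 and the block and 0.0566% with library totals. The log2 differences ran from -0.19 for Foxp2 to 0.04 for Chd2, and all 32 were within 0.2 of no change, as were 86.7% of tested genes. Their median absolute log2 difference was 0.031, against 0.063 over tested genes. In 2 genes, Chd2 and Kmt2a, both 0.5 h libraries stood above both untreated ones, against 14.8% of tested genes, and in 0 both stood below, against 6.38%. For Chd2 the levels were 12.3 and 12.1 cRPKM at 0.5 h and 11.7 and 11.6 in untreated cultures, so the gap was small.

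At 3 h, 6 of the 32 genes were called, 4 higher and 2 lower than in untreated cultures. That is 18.8%, near the 15.6% of all tested genes that were called, so the share is not a result about these genes. Of tested genes 8.71% were called higher and 6.84% lower. With the replicate number as a block, taken as a pairing because same-numbered libraries deviated together, 13 of 32 were called (6 higher, 7 lower), against 37.2% of tested genes. All 6 genes called without the block were among them. The other 19 genes were called in neither fit. DESeq2 called 9 of 32 (26% of tested genes), DESeq2 with the block 16 (38.2%) and edgeR with library totals 7 (15.4%), and 11 had an unadjusted p under 0.05 (34.4%). Without untreated replicate 1 or replicate 2 none of the 32 was called, and the share of tested genes called was 0.457% and 0.235%. Without 0.5 h replicate 1 or replicate 2 there were 2 (6.69% and 6.79%), without 3 h replicate 1 there were 8 (23.2%) and without 3 h replicate 2 there were 3 (10.7%). The median absolute log2 difference was 0.29, against 0.32 over tested genes, and 14 of the 32 lay within 0.2 of no change (43.8%), against 33.4%.

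**Figure D2:**
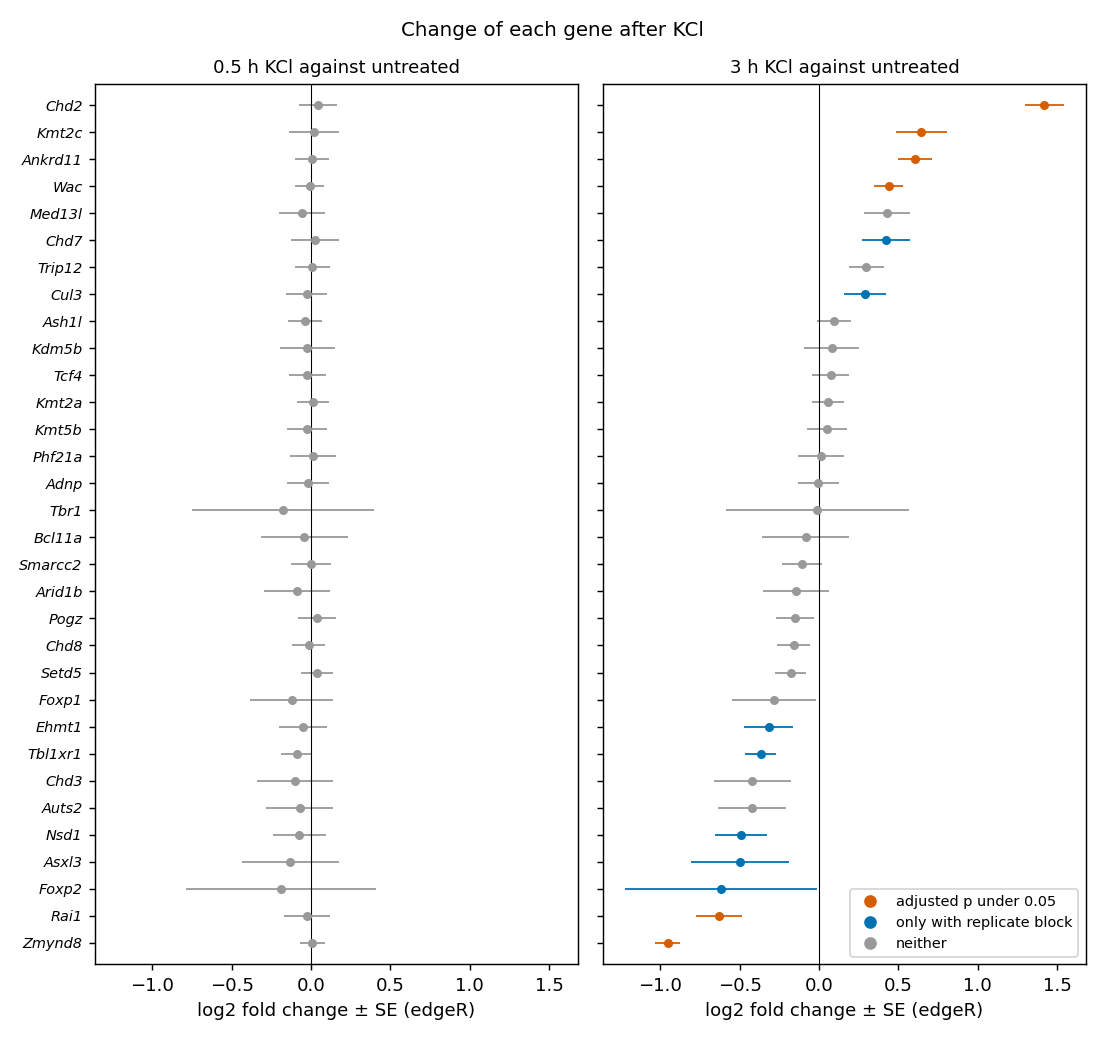
Log2 fold change of each gene at 0.5 h KCl (left) and 3 h KCl (right), each against untreated, with standard errors as bars. Orange marks genes called by edgeR, blue those called only with the replicate block and grey the rest. At 0.5 h all points lie close to 0, and at 3 h Chd2 stands highest at 1.42 and Zmynd8 lowest at -0.95.

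Among the 7 genes for nucleosome remodelling, Chd2 was called. Chd2 (ENSMUSG00000078671), a remodelling ATPase whose loss causes childhood epilepsy, stood at 11.7 and 11.6 cRPKM in untreated cultures, 12.3 and 12.1 at 0.5 h and 31.9 and 27.8 at 3 h. Both 3 h libraries were far above all 4 others. It was higher at 3 h by 1.42 ± 0.12 (log2, SE), a fold of 2.67 (edgeR, adjusted p = 0.0061), the largest difference of the 32. Without untreated replicate 1 or replicate 2 the adjusted p was 0.058 and 0.067, and in the other 4 fits that left out a library the call held. A non-coding transcript, 1810026B05Rik, shares 634 bases with the longest annotated Chd2 transcript (6.98% of it) on the same strand, and its own reads were not analysed here.

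The other remodelling genes were not called in the fit without the block. Chd7, whose loss causes CHARGE syndrome, had 6.88 and 7.14 cRPKM at 3 h and 6.10 and 4.77 in untreated cultures. Its groups did not overlap, and the difference of 0.42 ± 0.15 had an adjusted p of 0.11, or 0.027 with the block. Chd8, one of the genes most often hit in autism, had 15.9 and 18.2 cRPKM at 3 h and 20.4 and 19.1 in untreated cultures, a log2 difference of -0.16 ± 0.10 (adjusted p = 0.34). Chd3 had 65.1 and 42.6 cRPKM at 3 h and 78.1 and 72.3 in untreated cultures (log2 -0.42 ± 0.24, adjusted p = 0.27). Its 3 h libraries lay far apart: the log2 difference was -0.81 without 3 h replicate 1, with an adjusted p of 0.032, and -0.098 without 3 h replicate 2. Arid1b, a BAF subunit that binds DNA, had 11.5 and 7.98 cRPKM at 3 h and 11.4 and 11.1 in untreated cultures, and Smarcc2 had 68.6 and 61.1 against 74.6 and 70.8. Adnp stood at 36.2 and 38.2 cRPKM at 3 h and 41.0 and 36.4 in untreated cultures, a log2 difference of -0.003 ± 0.13. Its annotation overlaps a read-through gene, Gm20716, over 89.1% of its longest transcript in a later annotation than the one used for counting; how the reads of the overlap were assigned is unknown, so its level is uncertain.

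Of the 8 genes for histone methylation with values, Kmt2c was called. Kmt2c, a methyltransferase that acts at enhancers, stood at 13.0 and 11.3 cRPKM in untreated cultures, 13.8 and 11.2 at 0.5 h and 16.7 and 19.9 at 3 h. Both 3 h libraries were above all others. Its difference of 0.65 ± 0.16, a fold of 1.56, had an adjusted p of 0.047 and lost the call in every fit that left out a library (0.059 to 0.27). It also lost it with RLE scaling (0.050), with library totals (0.053) and with only the 2 groups compared (0.064). Kmt2a, its relative that maintains active developmental genes, had 15.4 and 15.0 cRPKM at 3 h and 15.3 and 15.1 in untreated cultures, and its groups overlapped. Nsd1, a methyltransferase whose loss causes Sotos overgrowth, had 13.8 and 11.6 cRPKM at 3 h and 19.5 and 17.7 in untreated cultures. Both 3 h libraries were below both untreated ones, and the difference of -0.49 ± 0.16 had an adjusted p of 0.098, or 0.011 with the block. Ehmt1, which writes a repressive mark and causes Kleefstra syndrome when lost, had 12.8 and 11.7 cRPKM at 3 h and 16.7 and 14.9 in untreated cultures (log2 -0.32 ± 0.15, adjusted p = 0.20, or 0.024 with the block). Setd5, a SET-domain protein, had 26.0 and 26.6 cRPKM at 3 h and 31.2 and 30.6 in untreated cultures (log2 -0.18 ± 0.10, adjusted p = 0.26). Ash1l, a methyltransferase of active genes, Kmt5b, a methyltransferase for histone H4, and the demethylase gene Kdm5b had log2 differences of 0.10, 0.05 and 0.08, and their groups overlapped.

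**Figure D3:**
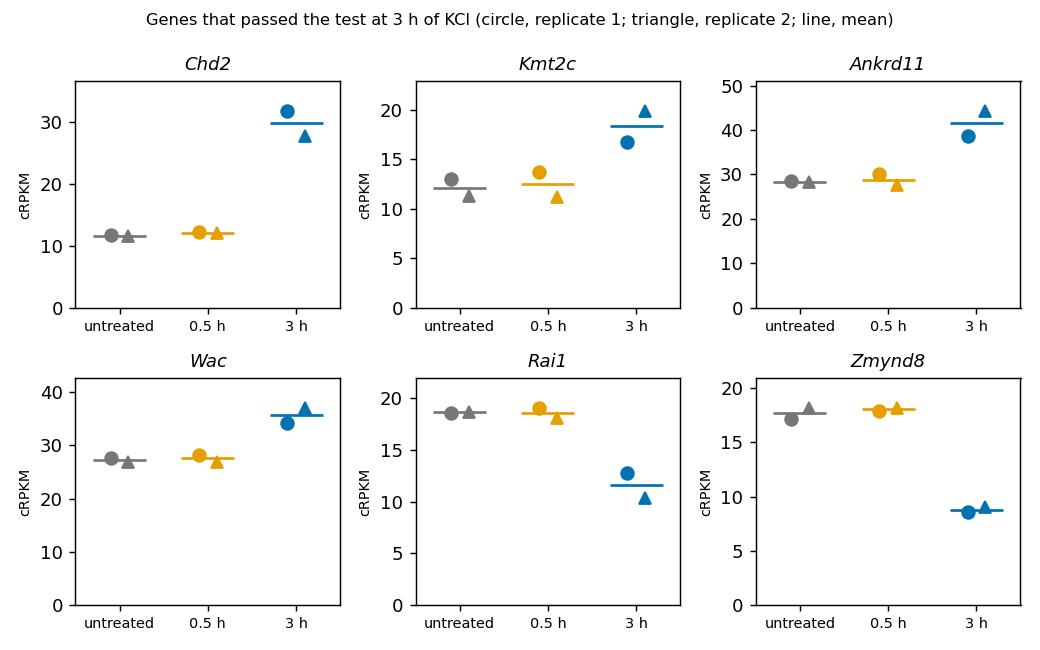
Level in cRPKM of the genes called at 3 h against untreated, 1 panel a gene, with the untreated, 0.5 h KCl and 3 h KCl groups from left to right; circles are replicate 1, triangles replicate 2 and lines the mean. The untreated and 0.5 h points lie at like heights, and the 3 h points of Zmynd8 lie near 8.80 cRPKM against 17.7 in untreated cultures.

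Of the 8 genes for chromatin readers and corepressors, Ankrd11 was called higher and Zmynd8 and Rai1 lower. Zmynd8, which reads acetylated and methylated histones, stood at 17.2 and 18.2 cRPKM in untreated cultures, 17.9 and 18.2 at 0.5 h and 8.56 and 9.03 at 3 h. Its 3 h libraries were below all 4 others, and the log2 difference was -0.95 ± 0.08 (edgeR, adjusted p = 0.0059), a fold of 0.517. Its adjusted p was 0.054 without untreated replicate 1 and 0.067 without untreated replicate 2, and the call held in the other 4 such fits. Ankrd11, an ankyrin-repeat cofactor that recruits histone deacetylases and causes KBG syndrome when lost, stood at 28.5 and 28.2 cRPKM in untreated cultures, 30.0 and 27.7 at 0.5 h and 38.8 and 44.4 at 3 h. Both 3 h libraries were above all others, and the difference was 0.61 ± 0.11 (adjusted p = 0.023), a fold of 1.52. The call held only without either 3 h library (0.025 and 0.046) and was lost without either untreated (0.13 and 0.18) or either 0.5 h library (0.055 and 0.053). An antisense transcript, Gm45894, shares 6.37% of the longest Ankrd11 transcript, and the library kit does not mark the strand.

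Rai1, the gene behind Smith-Magenis syndrome, stood at 18.6 and 18.7 cRPKM in untreated cultures, 19.1 and 18.1 at 0.5 h and 12.8 and 10.4 at 3 h. The 3 h libraries were below all others. Its difference was -0.63 ± 0.14 (adjusted p = 0.042), a fold of 0.648, and the call held only without 3 h replicate 1 (0.016); without untreated replicates 1 and 2 the adjusted p was 0.16 and 0.20. Tbl1xr1, part of the NCoR corepressor, had 6.77 and 7.64 cRPKM at 3 h and 9.99 and 9.28 in untreated cultures. Its groups did not overlap, and its difference of -0.37 ± 0.10 had an adjusted p of 0.058, or 0.027 with the block. Asxl3, a Polycomb-related scaffold, had 3.45 and 2.38 cRPKM at 3 h and 5.02 and 3.58 in untreated cultures (log2 -0.50 ± 0.31, adjusted p = 0.31, or 0.0078 with the block). Auts2, which joins a Polycomb complex in neurons, had 13.3 and 8.98 cRPKM at 3 h and 15.7 and 15.5 in untreated cultures (log2 -0.42 ± 0.21, adjusted p = 0.23). Its value rested on 1 library, at -0.79 without 3 h replicate 1 (adjusted p = 0.019) and -0.11 without 3 h replicate 2. Pogz, a zinc-finger protein that binds heterochromatin protein, had a log2 difference of -0.15 ± 0.12, and Phf21a, a CoREST subunit that reads unmethylated histone, one of 0.01 ± 0.15.

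None of the 5 DNA-binding factors was called without the block. Tcf4 had 110 and 102 cRPKM at 3 h and 103 and 106 in untreated cultures, and the groups overlapped. Bcl11a, a zinc-finger factor of cortical and hippocampal neurons, had 37.6 and 21.9 cRPKM at 3 h and 34.4 and 31.6 in untreated cultures. Its 3 h libraries lay on either side of the untreated ones, with a log2 difference of -0.58 without 3 h replicate 1 (adjusted p = 0.043) and 0.30 without 3 h replicate 2. Tbr1, a factor of deep-layer glutamatergic neurons, had 17.8 and 6.48 cRPKM at 3 h and 16.1 and 9.67 in untreated cultures, and its SE of 0.58 on the log2 scale left its direction unsettled. Foxp1, which shapes neuronal maturation, had 6.36 and 4.18 cRPKM at 3 h and 7.45 and 5.94 in untreated cultures (log2 -0.28 ± 0.26, adjusted p = 0.49). Foxp2 had 0.21 and 0.11 cRPKM at 3 h and 0.35 and 0.16 in untreated cultures; its groups overlapped, and it was called lower only with the block (adjusted p = 0.026, against 0.52). Without untreated replicate 1 its log2 difference was 0.095, against -0.61 over all libraries.

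Of the 4 genes of Mediator and ubiquitin, Wac was called. Wac, an adaptor for ubiquitination of a histone during transcription, stood at 27.6 and 27.0 cRPKM in untreated cultures, 28.2 and 26.9 at 0.5 h and 34.2 and 37.1 at 3 h. Both 3 h libraries were above all others, and the difference was 0.44 ± 0.09 (adjusted p = 0.033), a fold of 1.36. The call held only without 3 h replicate 1 (0.037), and without untreated replicates 1 and 2 the adjusted p was 0.16 and 0.24. Cul3, the scaffold of a ubiquitin ligase, had 36.4 and 37.4 cRPKM at 3 h and 33.6 and 29.0 in untreated cultures (log2 0.29 ± 0.13, adjusted p = 0.18, or 0.042 with the block). Med13l, a Mediator kinase-module subunit, had 14.2 and 17.7 cRPKM at 3 h and 13.0 and 11.6 in untreated cultures, and Trip12, a ubiquitin ligase, had 32.1 and 36.9 against 29.8 and 28.5. Neither Med13l (log2 0.43 ± 0.15) nor Trip12 (log2 0.30 ± 0.11) was called in either edgeR fit (adjusted p = 0.059 and 0.058 with the block). DESeq2 with the block called both (adjusted p = 0.010 and 0.023), where 38.2% of tested genes were called. DESeq2 without the block called Med13l (adjusted p = 0.048) and not Trip12, where 26% of tested genes were called. In all 4, both 3 h libraries were above both untreated ones. Over the 32, groups stood apart in this way in 8 genes upward and 12 downward, against 24.1% and 35.9% of tested genes.

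Set against 0.5 h rather than untreated cultures, 4 of the 32 genes were called at 3 h, which is 12.5% against 11.3% of tested genes (6.39% higher, 4.87% lower). Chd2, Ankrd11 and Wac were higher, by 1.37 ± 0.12, 0.60 ± 0.11 and 0.45 ± 0.09, and Zmynd8 was lower, by -0.96 ± 0.08 (edgeR, adjusted p = 0.010, 0.029, 0.038 and 0.0097). The same contrast tests whether the effects at the 2 times differ, and its 3 h libraries are those set against untreated cultures above. Rai1 and Kmt2c were not called (adjusted p = 0.054 and 0.060), but were with the block (0.016 and 0.027). With the block 12 genes were called (7 higher, 5 lower), against 31.2% of tested genes. DESeq2 called 7 (22.3%), DESeq2 with the block 12 (33.1%) and edgeR with library totals 4 (11.3%). Without either 0.5 h library none was called, nor was any other tested gene. Over the fits that left out 1 library, the log2 difference ran from 1.22 to 1.52 for Chd2 and from 0.54 to 0.70 for Ankrd11. It ran from 0.41 to 0.52 for Wac and from -0.97 to -0.94 for Zmynd8.

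The 2 libraries of a group differed in a way that recurred. Replicate 2 was lower than replicate 1 in all 3 groups for 15 of the 32 genes. The others included genes, such as Kmt2c and Med13l, in which replicate 2 was higher at 3 h and lower in both other groups. Same-numbered libraries also deviated together over all 15895 tested genes (r = 0.79, 0.57 and 0.60 between groups). How many of those genes had replicate 2 lower in all 3 groups was not counted, so the 15 is not a result about these genes. In Tbr1 the log2 difference of replicate 2 from replicate 1 was -0.74 in untreated cultures, -0.91 at 0.5 h and -1.46 at 3 h, and in Asxl3 it was -0.49, -0.57 and -0.54. In Bcl11a it was -0.12, -0.14 and -0.78, and in Chd3 -0.11, -0.20 and -0.61, so for these genes the gap was widest at 3 h. Summed astrocyte markers ran the other way, with replicate 2 above replicate 1 in every group. Summed interneuron markers did so as well, and excitatory neuron markers did in untreated cultures and at 0.5 h but not at 3 h. The sums of neuron, oligodendrocyte lineage, and endothelial and fibroblast markers were lower in replicate 2 in every group. Gfap, the astrocyte filament gene, which was singled out after its values were seen, had 22.4 and 307 cRPKM in untreated cultures, 22.8 and 335 at 0.5 h and 24.6 and 475 at 3 h. The part of cell makeup in the differences of these genes was not tested.

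**Figure D4:**
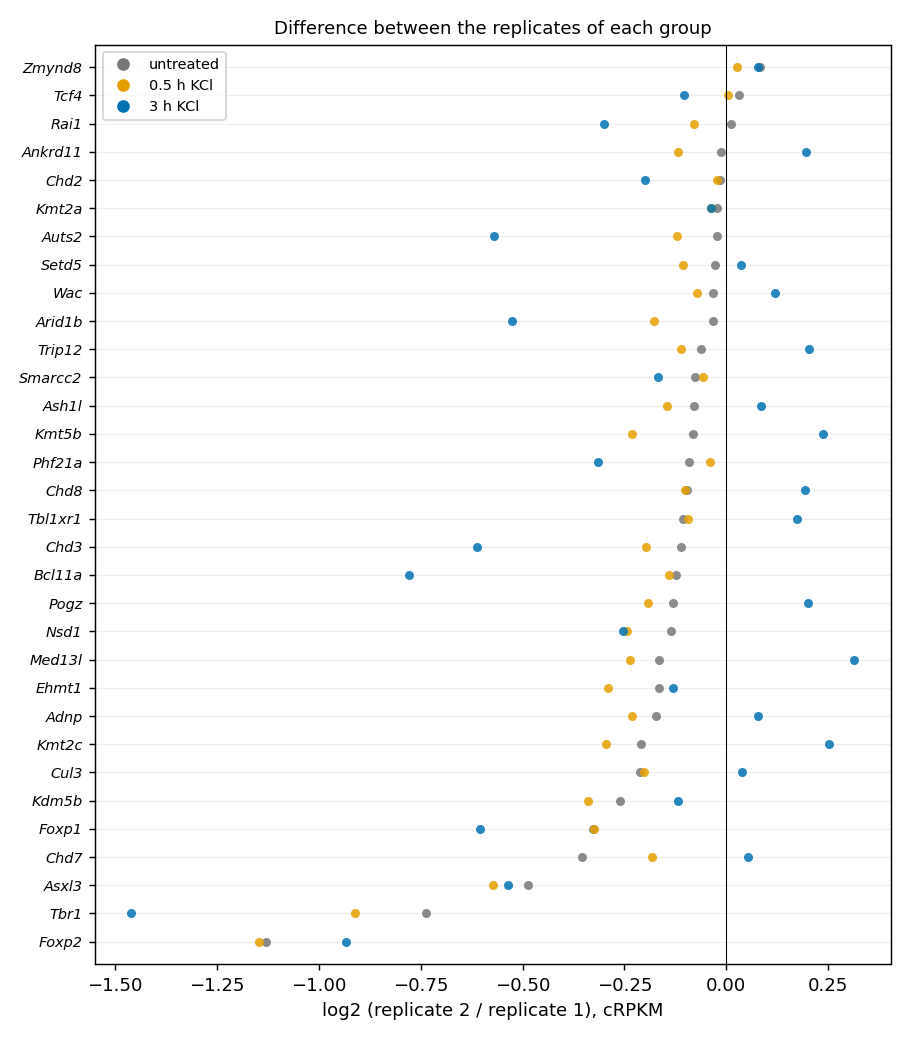
Log2 ratio of replicate 2 to replicate 1 for the genes, 1 point a group (untreated, 0.5 h KCl, 3 h KCl). Tbr1 and Foxp2 lie lowest in all groups, and the 3 h points of Bcl11a, Chd3, Auts2 and Arid1b lie further left than their other points.

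Related genes give the setting. Over 147 genes of 7 chromatin lists, which hold the partners and relatives of these regulators, 23 were called higher and 9 lower at 3 h against untreated (21.8%, against 15.6% of tested genes). With the block there were 43 and 22, where 37.2% of tested genes were called. Their median log2 difference was 0.11, against -0.02 over tested genes. Without untreated replicate 1 or replicate 2 none was called, without 0.5 h replicate 1 there were 14 higher and 1 lower, and without 0.5 h replicate 2 there were 15 and 1. Without 3 h replicate 1 there were 28 and 15, and without 3 h replicate 2 there were 21 and 1. At 0.5 h none was called, by edgeR at an adjusted or unadjusted p under 0.05 or by DESeq2.

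Of 28 CHD, ISWI, INO80 and NuRD genes, 6 were higher and 2 lower. That is 28.6%, and 8% of the BAF list was called, against 15.6% of tested genes. Smarca5, an ISWI ATPase, had 31.7 and 34.0 cRPKM at 3 h and 15.7 and 14.9 in untreated cultures (log2 1.16 ± 0.09, adjusted p = 0.0053). Baz2b, a bromodomain partner of ISWI, was higher by 0.88 ± 0.10 and Chd1, the closest CHD relative of Chd2, by 0.78 ± 0.09. In the BAF list 2 of 25 were higher and 0 lower, namely Actl6a, an actin-like subunit of the complex in progenitors, at 0.92 ± 0.17, and Ss18, a subunit of the same form, at 0.57 ± 0.11. With the block 4 of the 25 were higher and 6 lower, where 37.2% of tested genes were called. DESeq2 called 3 higher and 2 lower, where 26% of tested genes were called. The median log2 difference of the BAF list was -0.08, against -0.02 over tested genes.

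Among the enzymes that write and erase histone methylation, 5 of 16 demethylase genes were higher and 0 lower. The share called was 31.25% for the demethylases, 6.25% for the KMT2 and SETD1 list and 38.9% for the other methyltransferases. Of all tested genes it was 15.6%. Kdm3a, which removes a repressive mark, had 24.4 and 26.0 cRPKM at 3 h and 11.7 and 13.0 in untreated cultures (log2 1.08 ± 0.09), and Jmjd1c and Phf8 were higher by 0.84 ± 0.10 and 0.60 ± 0.08. Of 16 genes of the KMT2 and SETD1 complexes 1 was higher, Cxxc1, which tethers SETD1 to CpG islands, at 0.81 ± 0.11. Of 18 other methyltransferase genes 4 were higher and 3 lower. Suv39h2, a methyltransferase for heterochromatin, was higher by 1.32 ± 0.19, Dot1l, which methylates histones of active genes, by 0.81 ± 0.12 and Setd7 by 0.48 ± 0.09.

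Of 13 NCoR and CoREST genes 2 were higher and 2 lower. That is 30.8%, and 16.1% of the Mediator list was called, against 15.6% of tested genes. Rest, the repressor of neuronal genes, was higher by 0.74 ± 0.09, while the CoREST genes Rcor2 and Rcor3 fell by 1.01 and 0.62 on the log2 scale. Of 31 Mediator genes 3 were higher and 2 lower, among them Med26 at 0.71 ± 0.14, Med25 at 0.48 ± 0.08 and Med11 at -0.70 ± 0.14. Each of the genes named from these lists was called in the fit with the block as well, where 37.2% of tested genes were called. As given above, every such call was lost when either untreated library was left out.

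**Figure D5:**
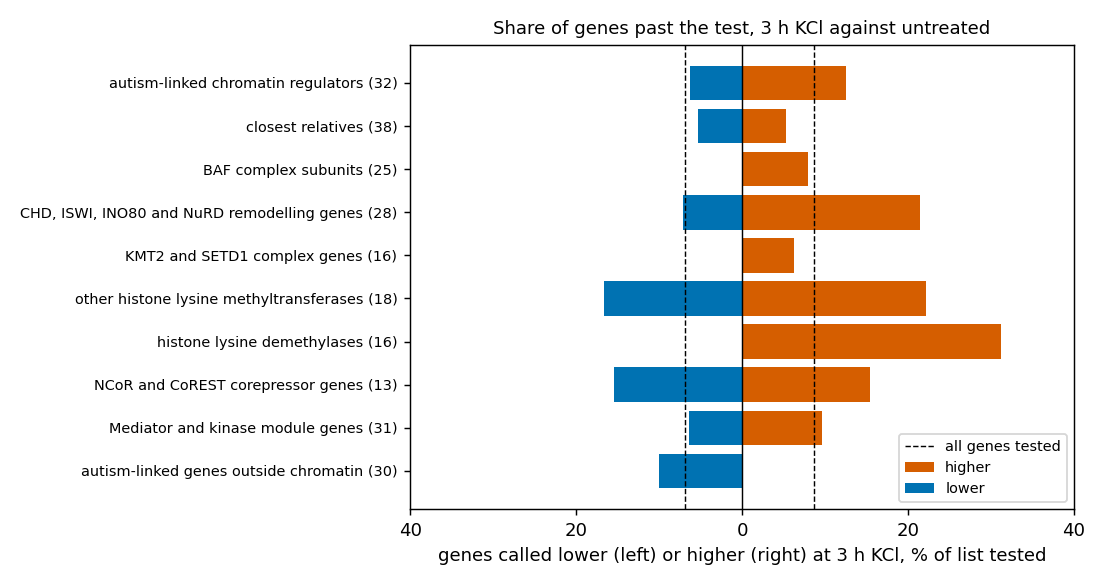
Share of each list called higher (orange, right) or lower (blue, left) at 3 h KCl against untreated, in % of the genes tested, with the number tested in brackets and dashed lines at the shares of all tested genes, 8.71% and 6.84%. The 32 regulators reach 12.5% to the right and 6.25% to the left, and the demethylase genes reach furthest to the right.

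Outside chromatin, 30 other autism-linked genes had 0 called higher and 3 lower at 3 h (10%, against 15.6% of tested genes), or 2 and 7 with the block (against 37.2% of tested genes). In these fits, which kept all libraries, the list was called no more often than genes at large. Nlgn3, a synaptic adhesion gene, had 15.1 and 14.0 cRPKM at 3 h and 26.0 and 27.2 in untreated cultures, and fell by 0.82 on the log2 scale. Scn2a, a sodium channel gene, fell by 0.72 and Gigyf2, a translation repressor, fell by 0.53. Without 3 h replicate 1 13 of the 30 were lower and 1 higher, where 23.2% of tested genes were called, and without an untreated library 0 were. Their median log2 difference was -0.27, against -0.02 over tested genes. Beside it, the median was -0.26 over the 8 neuron markers, -0.54 over the 5 excitatory neuron markers and 0.39 over the 7 astrocyte markers, and the part of cell makeup was not tested.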

How the data were processed

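Libraries were made, per the labels' protocols, from TriReagent RNA with a TruSeq RNA kit v2, which does not mark strand. The submitters' processing notes name Bowtie and build mm9; the sources used here give neither versions nor an annotation. The authors deposited, for each gene, a whole-number read count without normalization and an RPKM named cRPKM, which followed the counts within 0.381% over 7690 genes with over 2000 counts. Identifiers were matched to a later GENCODE annotation for names (94.9% of 21553) and transcript lengths. Promoters came from RefSeq windows on GRCm38.p6. The tests used edgeR 4.0.16 under R 4.3.3 (scaling by TMM, minimum count of 10, quasi-likelihood F test, all 6 libraries, 3 residual degrees of freedom, Benjamini-Hochberg over 15895 genes, threshold 0.05); DESeq2 1.42.0 and limma 3.58.1 were alternatives. SE is the absolute log2 fold change divided by the square root of F. The scripts were tested on simulated counts. Same-numbered libraries deviated together (r = 0.79, 0.57 and 0.60 between groups over genes). In the fits with the block the number was therefore taken as a pairing, found in the data and not stated in the labels. The main fit and the fits that left out a library did not use it. Every member was named, and up to 3 called genes with the smallest adjusted p in each related list. Members and lists were chosen with earlier results of these data known. Library totals lay between 98882007 and 141865913 counts.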

Additional observations from a re-analysis of the deposited data

Results flagged for a closer look

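Of the 32 regulators, 4 had a 3 h effect that differed from the 0.5 h effect by the edgeR test of the difference. That is 12.5%, against 11.3% of tested genes, so the share is not a result about these genes. The log2 difference between the 2 effects was 1.37 for Chd2, 0.60 for Ankrd11, 0.45 for Wac and -0.96 for Zmynd8, and each gene moved the same way in both 3 h libraries. The groups have 2 libraries each, so single libraries were not screened as outliers.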

How the results depend on the processing

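At 0.5 h against untreated no member was called under any setting. At 3 h against untreated the members called higher (4) numbered 1 with only the 2 groups compared and 8 with DESeq2 and the replicate block, and 0 to 3 when a library was left out. Those called lower (2) numbered 4 with library totals, 4 with DESeq2, 1 with only the 2 groups, 7 with the edgeR replicate block and 8 with the DESeq2 block, and 0 to 5 when a library was left out. With library totals the members split 3 higher and 4 lower, with Kmt2c lost and Nsd1 and Tbl1xr1 gained, and all genes split 1115 higher and 1340 lower, against 1384 and 1088. At 3 h against 0.5 h the members higher (3) numbered 5 with DESeq2, 1 with only the 2 groups, 7 with the block, 8 with the DESeq2 block and 0 to 3 without a library; those lower (1) numbered 2 with library totals, 2 with DESeq2, 5 with the block, 4 with the DESeq2 block and 0 to 4 without a library. Related genes higher (23) numbered 14 with only the 2 groups, 43 with the block, 49 with the DESeq2 block and 0 to 28 without a library; those lower (9) numbered 15 with DESeq2, 1 with only the 2 groups, 22 with either block and 0 to 15 without a library. All genes called at 3 h against untreated numbered 2472 (15.6%). They numbered 4133 with DESeq2 (26%), 5918 with the edgeR block (37.2%) and 6066 with the DESeq2 block (38.2%). With library totals the share was 15.4%. At 3 h against 0.5 h the share of tested genes called was 11.3% in the main fit and with library totals. It was 22.3% with DESeq2, 31.2% with the edgeR block and 33.1% with the DESeq2 block. The share with only the 2 groups compared is not given here, so counts under that setting are not a result about the members. Direction turned in 12 genes, of which 4 did so under settings that kept all libraries. Adnp (-0.0031) came to 0.012 with RLE, 0.0061 with no filter, 0.012 with a minimum count of 50, 0.012 with DESeq2, 0.00072 with limma-voom, 0.013 with only the 2 groups, 0.0020 with the block and 0.018 with the DESeq2 block. Kmt5b came to -0.0032 and Phf21a to -0.049 with library totals. Tbr1 (-0.011) came to 0.0022 with RLE, 0.0045 with a minimum count of 50, 0.0012 with DESeq2 and 0.0034 with only the 2 groups. Leaving out a library gave -0.099 to 0.096 for Adnp, -0.48 to 0.14 for Arid1b, -0.58 to 0.30 for Bcl11a, -0.67 to 0.036 for Foxp1, -1.24 to 0.095 for Foxp2, -0.056 to 0.23 for Kdm5b, -0.0075 to 0.13 for Kmt2a, -0.015 to 0.12 for Kmt5b, -0.21 to 0.21 for Phf21a, -0.24 to 0.028 for Smarcc2, -0.98 to 0.58 for Tbr1 and -0.024 to 0.18 for Tcf4. The cause of these shifts was not tested.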

Other observations

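Excitatory neuron markers, 5 genes, summed to 392 and 530 cRPKM in untreated cultures, 379 and 479 at 0.5 h and 326 and 278 at 3 h. Interneuron markers, 6 genes, summed to 323 and 540 cRPKM in untreated cultures, 311 and 522 at 0.5 h and 245 and 356 at 3 h. Oligodendrocyte lineage markers, 7 genes, summed to 294 and 204 cRPKM in untreated cultures, 255 and 196 at 0.5 h and 304 and 225 at 3 h, and endothelial and fibroblast markers, 8 genes, to 42.9 and 31.2, 43.3 and 31.5, and 44.3 and 29.0. None of the neuron, astrocyte or these 4 lists had a gene called at 3 h against untreated by edgeR without the block. At an unadjusted p under 0.05 there were 1 neuron, 1 excitatory neuron, 2 interneuron, 2 astrocyte, 0 oligodendrocyte and 1 endothelial or fibroblast gene, and DESeq2 called 1, 1, 1, 1, 0 and 0. With the edgeR block 4 of the 7 astrocyte genes were higher, 1 of 6 interneuron genes was higher and 3 lower, and 2 of 8 endothelial or fibroblast genes were higher and 1 lower. The block fit also called 1 neuron and 1 excitatory neuron gene lower and 1 oligodendrocyte gene higher. Of tested genes 37.2% were called with the edgeR block and 26% by DESeq2, and 34.4% had an unadjusted p under 0.05. Progenitor markers, 7 genes, summed to 193 and 167 cRPKM in untreated cultures, 182 and 165 at 0.5 h and 411 and 541 at 3 h. At 3 h against untreated 1 of the 7 was called higher by edgeR (14.3%, against 15.6% of tested genes). With the block 5 were higher (against 37.2% of tested genes called), and DESeq2 called 2 higher and 1 lower (against 26%). Vim, an intermediate filament gene of glia and progenitors that was singled out after its values were seen, had 102 and 84.9 cRPKM in untreated cultures, 103 and 93.1 at 0.5 h and 307 and 460 at 3 h. Of the 38 closest relatives of the regulators, 2 were called higher and 2 lower at 3 h against untreated (edgeR). That is 10.5%, against 15.6% of tested genes. Among them was Tcf12, a relative of Tcf4, at 26.1 and 29.3 cRPKM at 3 h and 20.1 and 17.4 in untreated cultures. Kmt5c, the relative of Kmt5b, had 6.70 and 6.60 cRPKM at 3 h and 10.2 and 9.44 in untreated cultures.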
